A study of Gallus gallus with 3 samples.

Results

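The miR-1 and miR-206 family of chicken leg muscle is described here from all array probes whose name is gga-miR-1, with or without a letter, or gga-miR-206. The choice used names alone. It gave 4 of the 542 miRNA probes: gga-miR-1a, gga-miR-1b, gga-miR-1c and gga-miR-206, written below without the species prefix. Each probe was printed at 6 spots, so the family held 24 of the 3252 miRNA spots of an array.

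The study compared dwarf with normal recessive White Rock chickens, a meat-type breed, at 7 weeks of age. According to the study's methods, the dwarf chickens carried a deletion that removes the end of the last coding exon and part of the 3′ UTR of GHR, the growth hormone receptor gene, and both strains were raised under the same conditions. Normal chickens of the other strain were the controls, and no treatment was given to either. The muscle was taken from the centre of the gastrocnemius. RNA of 3 chickens was combined in a pool, and 3 dwarf pools and 3 normal pools were each hybridized once, as 3 dual-colour arrays with 1 pool of each strain. On arrays 1 and 3 the dwarf pool carried Cy5 and the normal pool Cy3, and on array 2 the dwarf pool carried Cy3 and the normal pool Cy5. The sex of these birds was not given in the sources used here, and pooling leaves the spread between single birds unmeasured. Since whole muscle was ground, fewer cells of a type and less RNA per cell cannot be told apart.

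The miR-1 and miR-206 miRNAs are the best known miRNAs of striated muscle. In mouse, miR-1 is transcribed under the muscle factors SRF, MyoD and MEF2 and represses Hdac4, which favours the differentiation of myoblasts, whereas miR-206 is largely restricted to skeletal muscle, is high in slow fibres and represses Pax7 in activated satellite cells. A miRNA recognises its targets mainly through its seed, the bases near its 5′ end. The family is known in animal breeding from Texel sheep, in which a base change in the myostatin gene creates a site for miR-1 and miR-206 and the animals are heavily muscled.

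The mature sequences of the 4 members, as listed for the probes in the array tables, are shown because the members differ by few bases and because 1 of them has another seed. They run 5′ to 3′, and capitals mark the seed (bases 2 to 8).
miR-1a: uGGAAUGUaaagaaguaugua
miR-1b: uGGAAUGUuaagaaguaugua
miR-1c: uGGAAUGGaaagcaguauguau
miR-206: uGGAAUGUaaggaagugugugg

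The seed GGAAUGU was shared by miR-1a, miR-1b and miR-206 and by no other of the 542 probes. The seed of miR-1c, GGAAUGG, was carried by miR-1c alone. With positions numbered from 1 at the 5′ end, and the base of miR-1a named first, miR-1b differed by A9U, miR-1c by U8G and A13C, and miR-206 by A11G, A17G and A21G. Both miR-1c and miR-206 were 1 base longer than miR-1a, at 22 bases against 21. The GC content was 28.6% for miR-1a and miR-1b, 36.4% for miR-1c and 45.5% for miR-206. The nearest probe outside the family differed from a member by 8 bases or more.

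In RefSeq's genes on assembly bGalGal1.mat.broiler.GRCg7b, miR-1a has 2 genes, which the probe cannot tell apart. Genes within 20 kb are called neighbours. MIR1-1 lies in the long noncoding RNA gene LOC101747836 beside MIR133A2 and MIR1773. MIR1-2 lies in MIB1, which encodes a ubiquitin ligase of Notch signalling, beside MIR133A1. The gene of miR-1b, MIR1B, lies in IFI27L2 beside MIR133C and MIR12248, and that of miR-206, MIR206, lies beside MIR133B. No other miRNA gene was a neighbour of MIR1C, the gene of miR-1c. Each gene of the 3 members with the seed GGAAUGU therefore has a miR-133 gene as a neighbour.

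Of the 4 members, miR-1a and miR-206 were detected and miR-1b and miR-1c were not, with the background surface used here. Detection required a signal above 32, the standard of the study, here taken on the mean of the 3 pools of a strain. The signal is the intensity after subtraction of the background and removal of the dye trend (loess), in arbitrary units, with the arrays scaled to one median. By this standard 85 of the 542 miRNAs were detected in either strain and tested, 74 in both strains and 11 in dwarf chickens alone. Those 11 passed through the strain in which they were higher. With its own processing, the study reported more detected miRNAs in each strain at this age, with almost equal counts. Dwarf pools carried Cy5 on arrays 1 and 3. The noise (median absolute deviation) was 2.71 to 4.31 in Cy5 and 12.8 to 35.9 in Cy3. How far the dyes shaped the 11 found in dwarf chickens alone was not tested. The background had a median of 304.3 to 830 in Cy3 and of 44.2 to 53.1 in Cy5 on the 3 arrays. Probes bind with different strength, so a rank of signals is not a rank of molecules.

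The probe of miR-1a was the brightest of the array. Dwarf pools gave a signal of 24838 on array 1, 12240.4 on array 2 and 26269 on array 3. Normal pools gave 28987, 20981 and 30903 on the same arrays. It ranked first of 542 in 5 of the 6 pools and second in the dwarf pool of array 1, in which miR-133c was brighter. The dwarf pool of array 2 was the lowest of the 6, and the signals of the strains overlapped. Before loess and scaling, the background-subtracted Cy3 intensity was 27011, 28328 and 29884 on arrays 1, 2 and 3. The scaling multiplied these arrays by 1.71, 0.63 and 0.92. How far it set the order of the arrays for miR-1a was not tested. Dwarf chickens had a mean of 21116 ± 7719.8 and normal chickens one of 26957 ± 5263 (SD, n = 3 pools each).

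For miR-206, arrays 1, 2 and 3 gave signals of 3303, 2118 and 2240.3 with the dwarf pools. They gave 2947, 2082 and 3126 with the normal pools. These signals placed miR-206 between rank 11 and rank 18 of 542. Both pools of array 2 and the dwarf pool of array 3 were low, the other 3 pools were high, and the strains overlapped. Dwarf chickens had a mean of 2554 ± 651 and normal chickens one of 2718 ± 558 (SD, n = 3 pools each).

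**Figure D1:**
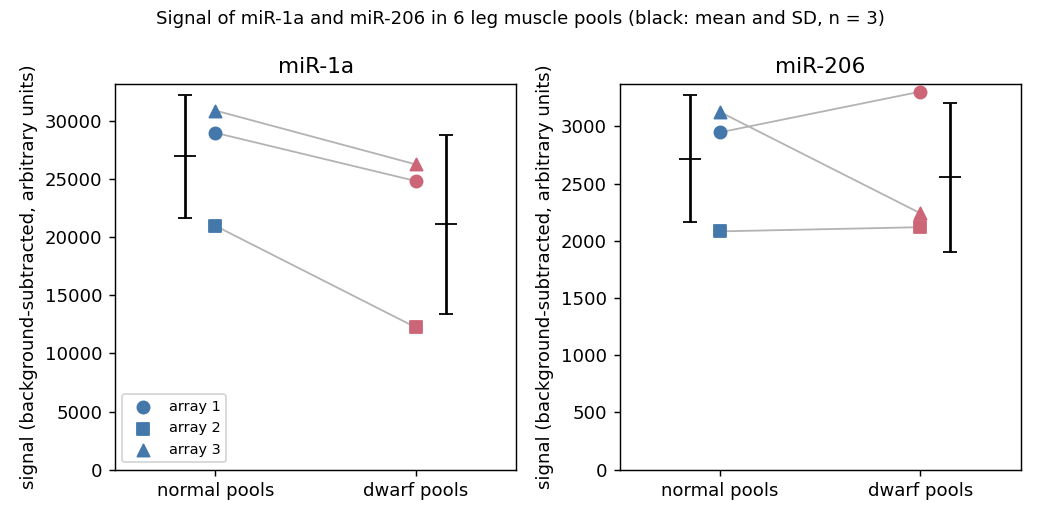
Signal of miR-1a (left) and miR-206 (right) in the 3 normal and the 3 dwarf pools, in arbitrary units after background subtraction and loess, on linear axes that start at 0. Lines join the pools of one array, and the black marks give the mean and SD (n = 3). The line of miR-1a runs down from normal to dwarf on each array, while that of miR-206 falls clearly on array 3 only, and the pools of the strains overlap for both.

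The signal of miR-1b did not pass 32 in any pool. Arrays 1, 2 and 3 gave 2.76, -3.29 and 14.0 with the dwarf pools, and -5.95, 1.95 and -15.3 with the normal pools. The highest of these came from the dwarf pool of array 3, whose 6 spots read from 56.96 to 64.32 in Cy5 over a background of 52.3. Their mean was 8.86 above the background, where the noise of that dye (median absolute deviation) was 4.31. The dyes differ in brightness, so this Cy5 level cannot be set directly against the Cy3 noise of 12.8 to 35.9. Whether such a level would show in Cy3 was not tested. The sequence of miR-1b differs from that of miR-1a by the single base A9U, and its probe stayed near background in the pools in which miR-1a was the brightest or second brightest.

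The signal of miR-1c was below 0 in every pool, from -3.98 to -1.44 in dwarf chickens and from -20.7 to -0.64 in normal chickens. It ranked between 343 and 537 of 542. The lack of detection in normal chickens depended on the background. With the background taken from the empty spots of the array, the mean normal signal was 47.7 for miR-1b and 46.3 for miR-1c, above 32. The mean dwarf signal was 6.03 and -0.35, and the median rank over the pools was 304 and 478 of 542. A probe as low in rank as miR-1c thus passed 32 in normal chickens with that background. The share of all probes that passed in this way was not counted, so passing there is not read as detection of these members. Because a signal of 32 lies close to the noise in Cy3, low levels of miR-1b and miR-1c could be missed. No fold change between the strains is given for either.

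**Figure D2:**
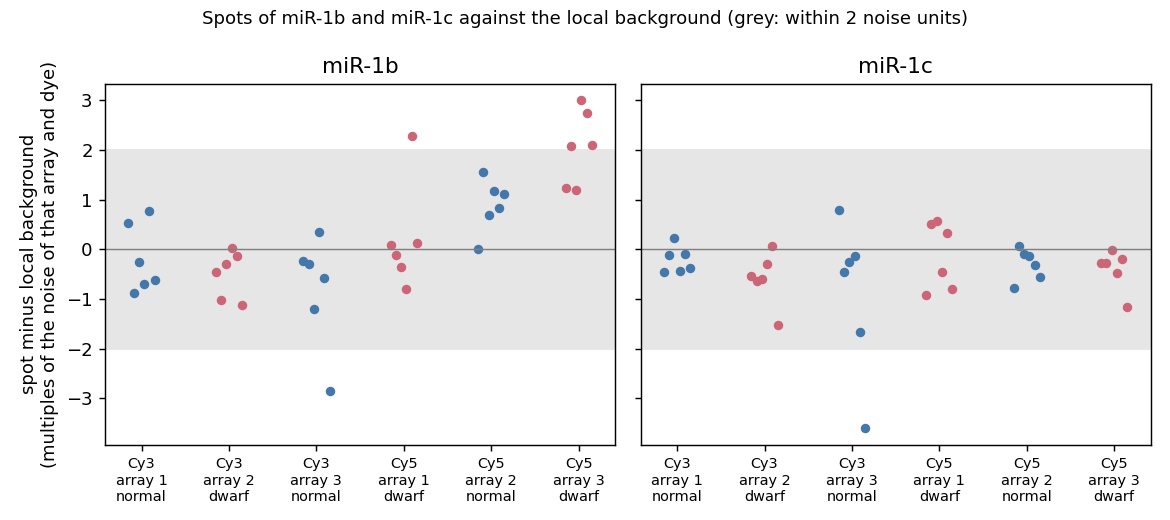
Each of the 6 spots of miR-1b (left) and miR-1c (right) minus the local background, in multiples of the noise of that array and dye, with dwarf pools in red and normal pools in blue. The grey band spans 2 noise units either side of 0, and of the 12 sets of spots only the Cy5 spots of miR-1b in the dwarf pool of array 3 lie mostly above the band.

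The comparison between the strains asks whether the muscle of dwarf chickens differed from that of normal chickens in these miRNAs. Neither detected member passed the test. By limma with Benjamini-Hochberg adjustment, 0 of the 85 miRNAs tested (0%) had an adjusted p under 0.05. The lowest adjusted p, 0.410, belonged to no member of the family. An unadjusted p under 0.05 was reached by 4 of the 85 (4.71%), neither miR-1a nor miR-206 among them.

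For miR-1a the log2 ratio, dwarf over normal, was -0.28, -0.76 and -0.25 on arrays 1, 2 and 3. A ratio below 0 on 3 of the 3 arrays was found for miR-1a and in all for 7 of the 85 miRNAs tested (8.24%), or 7 of the 74 detected in both strains (9.46%), a set taken after the data had been seen. The mean was -0.43 with a standard error of 0.19 and a 95% interval from -0.88 to 0.022 (limma), a fold of 0.743 in dwarf over normal chickens. The adjusted p was 0.707 (limma, unadjusted p = 0.059), the seventh smallest of the 85. The SD between arrays was 0.29, close to the median of 0.28 over the miRNAs tested. The two-sided exact sign-flip permutation test of the 3 ratios gave p = 0.25, its lowest possible value. When the pools were not paired by array, the log2 signal was 0.41 lower in dwarf chickens, with a two-sided exact permutation p = 0.5, where 3 pools against 3 allow 0.1 at the lowest. By that measure, dwarf pools all below normal pools were seen for 0 of the 85 miRNAs (0%).

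Arrays 1, 2 and 3 gave log2 ratios of 0.12, 0.023 and -0.51 for miR-206, which was thus below 0 on 1 of the 3 arrays. The mean of -0.12 (standard error 0.20, 95% interval from -0.60 to 0.35, limma) was smaller than the SD between arrays of 0.34. The adjusted p was 0.969 (limma). Both exact permutation tests, of the 3 ratios and of 3 pools against 3, gave a two-sided p = 1. The mean turned to 0.070 when array 3 was left out.

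The members miR-1a and miR-206, which share the seed, did not keep one order between them. On the log2 scale the ratio of miR-206 minus that of miR-1a was 0.40, 0.78 and -0.27 on arrays 1, 2 and 3. The mean difference of 0.30 was smaller than its SD of 0.53 (p = 0.5 by the two-sided exact sign-flip permutation test, lowest possible 0.25).

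On single arrays the sign of the ratio of miR-1a changed with the correction of the dyes. Before background subtraction, the mean intensity of its 6 spots was 9175 for the dwarf pool in Cy5 and 27843 for the normal pool in Cy3 on array 1. On array 2 it was 28631 for the dwarf pool in Cy3 and 22621 for the normal pool in Cy5, and on array 3 it was 32045 for the dwarf pool in Cy5 and 30579 for the normal pool in Cy3. The dwarf pool thus read lower on array 1 and higher on arrays 2 and 3 before any correction.

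Set against the median of the tested miRNAs on the same array, the log2 Cy5 over Cy3 ratio of miR-1a before loess was higher by 0.50, 1.07 and 0.93 on arrays 1, 2 and 3. It was above the median on every array, whether Cy5 held the dwarf pool (arrays 1 and 3) or the normal pool (array 2). For miR-206 it was higher by 0.46, 0.078 and 0.019. The probe of miR-1a had the highest mean log2 intensity of the 542 on each array and so lay at the end of the loess curve. Few other probes lie near that end, and with a span of 0.3 dimmer probes also enter the fit there. The curve took out a log2 Cy5 over Cy3 ratio of -1.36, -1.11 and 0.33 at miR-1a. With a dye term in the limma fit, which the swapped array allows, the mean log2 ratio was -0.51 for miR-1a (adjusted p = 0.542) and -0.088 for miR-206 (adjusted p = 0.938). The dye term stands for a shift common to the 3 arrays after loess, and the course of the curve at its bright end is not part of it.

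**Figure D3:**
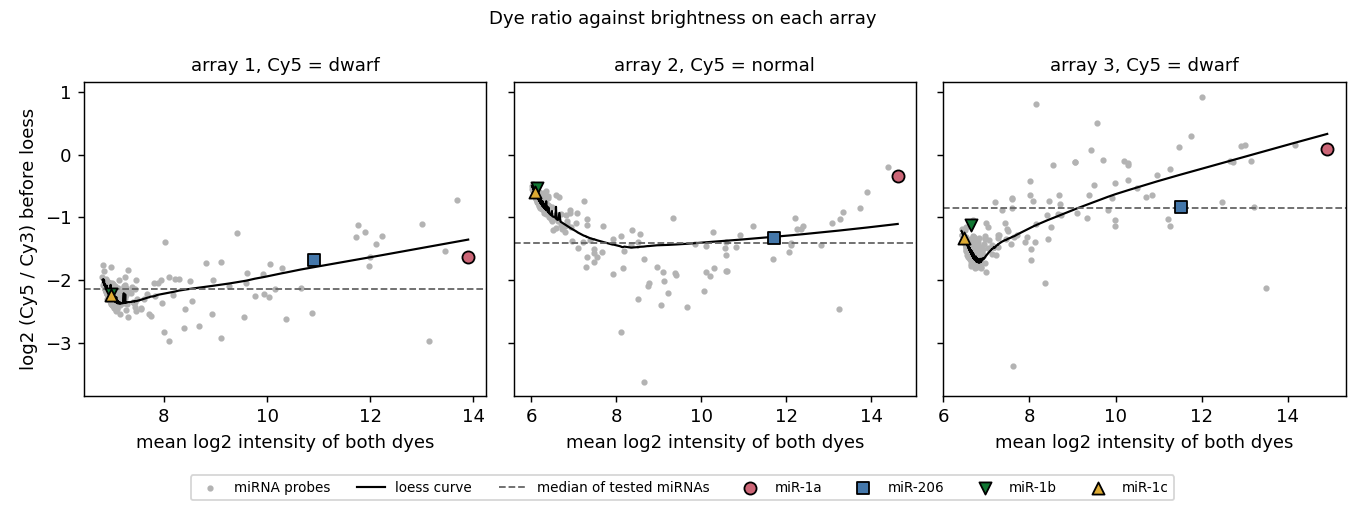
Log2 Cy5 over Cy3 ratio of each miRNA probe before loess against its mean log2 intensity in both dyes, 1 panel for each array, with the loess curve (solid) and the median of the tested miRNAs (dashed). The probe of miR-1a (red circle) is at the bright end of each panel, below the curve on arrays 1 and 3 and above it on array 2, where Cy5 held the normal pool.

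Other normalizations gave other ratios for miR-1a. When each array was centred on its median in place of loess, they were 0.50, -1.07 and 0.93, with a mean of 0.12 (adjusted p = 0.870, limma). The authors' log2 ratios, which ran as dwarf over normal on each array when set against the ratios after loess, were -0.31, -0.33 and 0.28 for miR-1a. With a loess curve through the bright spots alone, a setting chosen after the data had been seen, they were -0.33, 0.011 and 0.023. Among these 4 normalizations, array 1 was below 0 in each but median centring, and array 3 was below 0 only with the loess curve through all miRNA spots.

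The ratios of miR-206 differed less between these normalizations. They were 0.46, -0.078 and 0.019 with median centring, 0.23, -0.066 and -0.43 in the authors' log2 ratios, and 0.27, -0.038 and -0.52 with the loess curve through the bright spots. Array 1 was above 0 in each of them, and array 3 was the lowest with loess or LOWESS.

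**Figure D4:**
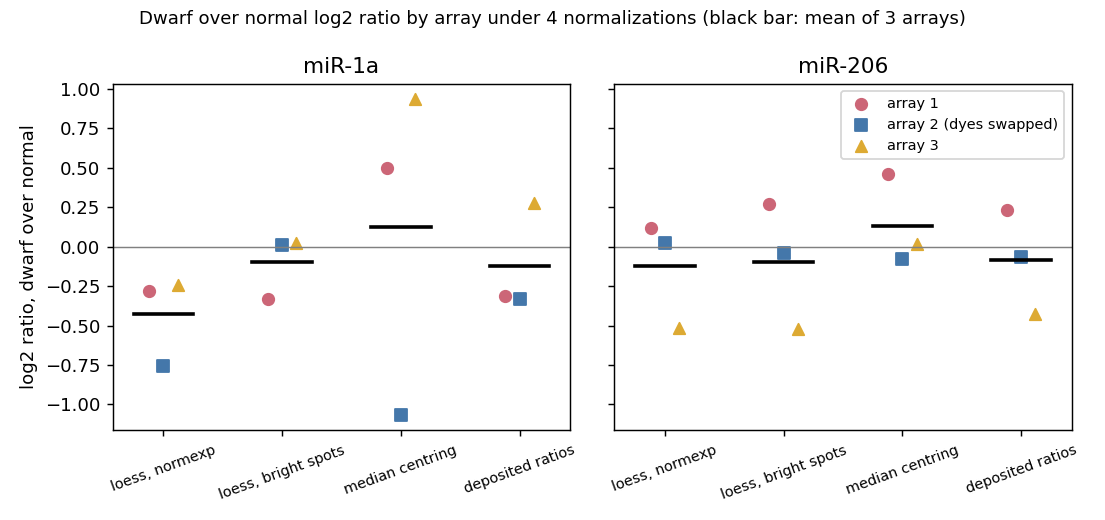
Log2 ratio of dwarf over normal of miR-1a (left) and miR-206 (right) on each array under 4 normalizations, with the mean of the 3 arrays as a black bar. The 3 ratios of miR-1a lie below 0 under loess after normexp and spread to both sides of 0 under the other 3, and those of miR-206 lie on both sides of 0 under all 4.

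The 6 spots of a probe stood as 3 in the upper and 3 in the lower rows of an array, and these sets differed for both detected members. The background-subtracted intensity of miR-1a in the lower rows over that in the upper rows was 1.99 in the dwarf and 1.37 in the normal pool of array 1. It was 1.14 and 1.36 on array 2, and 1.17 and 1.11 on array 3. For miR-206 the lower rows were dimmer in all 6 pools, at 0.647 to 0.785 of the upper rows, whereas the median over the tested miRNAs was 0.964 to 1.10. Because both dyes moved alike for miR-206, its log2 ratio from the lower rows differed from that of the upper rows by only -0.063, 0.12 and -0.052. For miR-1a the same difference was 0.43, -0.23 and 0.037. In size it ranked 2, 5 and 57 among the 85 miRNAs on arrays 1, 2 and 3, where 1 is the largest. Its ratios were below 0 in both sets of rows on each array, with means of -0.47 from the upper and -0.39 from the lower rows, a split made after the data had been seen.

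For the other muscle miRNAs, 4 of the 8 names on a list of miR-133, miR-208, miR-499 and miR-486 forms had a probe on the array. All 4 were tested and 0 were called. Their mean ratio was above 0 for 1 and below 0 for 3, where 31 of the 85 miRNAs tested were below 0. Their median was -0.13, against 0.048 over the 85 miRNAs tested and 0.028 over the 74 detected in both strains. The 3 below 0 were miR-133a, miR-133b and miR-133c. The 1 above 0 was miR-499, a miRNA encoded in an intron of the slow myosin gene Myh7b in mouse, with signals of 12.2, 505 and 446 in the dwarf pools and 1.90, 61.1 and 25.8 in the normal pools of arrays 1, 2 and 3. It passed the standard through the dwarf pools alone, both of its signals on array 1 were under 32, and no fold is given for it.

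The miR-133 miRNAs are made from the same transcripts as the miR-1 and miR-206 of neighbouring genes in mammals. On arrays 1, 2 and 3 the log2 ratio of miR-133a, a neighbour of miR-1a, was 0.36, -0.091 and -0.77. For miR-1a itself it was -0.28, -0.76 and -0.25. That of miR-133b, the neighbour of miR-206, was 0.43, -0.078 and -0.65, against 0.12, 0.023 and -0.51 for miR-206. The ratio of miR-133c, a neighbour of miR-1b, was 0.66, -0.56 and -0.84. All 3 miR-133 miRNAs and miR-206 were thus highest on array 1 and lowest on array 3, whereas miR-1a was lowest on array 2, so this order was not particular to miR-206 and its neighbour. It was picked after the data had been seen. The same order occurred in miR-1777 (0.55, -0.13 and -0.63), miR-1576 (0.19, 0.12 and -0.19) and the dim miR-29c (0.11, -0.018 and -0.030). The reverse occurred in miR-126 (-0.73, 0.26 and 1.15). Each order also occurred in tested miRNAs that are not named here. The share of the tested miRNAs with either order was not counted, so the order is not read as a trait of miR-206 or the miR-133 miRNAs. Whether the order reflects shared transcripts was not tested. The sequences of miR-133b and miR-133c each differ from that of miR-133a by 1 base (G21A and U22C, with the base of miR-133a first), and how far their probes read one another was not tested.

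Over the 6 pools, the log2 signal of miR-1a was most like that of miR-26a (Pearson r = 0.86), miR-1759 (0.84) and miR-1777 (0.70). For miR-206 the most alike were miR-1777 (0.94), miR-1576 (0.91) and miR-29c (0.90), of which miR-29c was dim, with a mean signal of 34.9 in dwarf and 15.6 in normal chickens. The correlation between miR-1a and miR-206 was 0.65. The named miRNAs are the 3 highest of 84 compared for each member, over 6 pools that share arrays, dyes and scaling. The values are given as a description, with signals under 1 set to 1. The median over the other 84 miRNAs was 0.080 for miR-1a and 0.058 for miR-206.

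The tissue label was checked against marker miRNAs of muscle and of other tissues. The muscle markers were miR-1a and miR-206 themselves with miR-133a, miR-133b, miR-133c and miR-499, and all 6 were detected. Without the 2 members, the summed signal of the other 4 was 10337 to 42081 in the dwarf pools and 17018 to 27852 in the normal pools. Of 5 blood markers 2 were detected, and the summed signal of the 5 was 66.5 to 171 in dwarf and 58.4 to 83.0 in normal chickens. Of 2 endothelial markers, miR-126 alone was detected, at 2322 to 5651 in dwarf and 2419.8 to 3880 in normal chickens, with log2 ratios of -0.73, 0.26 and 1.15 on arrays 1, 2 and 3. The liver marker miR-122 was detected in both strains, with a mean signal of 86.2 in dwarf and 182 in normal chickens. Its pools were at 3.66 to 170 in dwarf and 125 to 271 in normal chickens. The log2 ratios of miR-122 were -0.15, -0.043 and -2.06 on arrays 1, 2 and 3. None of the 3 neuronal, 5 epithelial and 1 pancreatic markers were detected. The part of other cell types in the values of miR-1a and miR-206 was not tested.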

How the data were processed

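The miRNA arrays, with probes from miRBase, were hybridized and scanned by a service provider. The authors deposited spot intensities (means over a spot) in Cy3 and Cy5, without background subtraction, and a table of log2 ratios made after background subtraction and LOWESS. The latter was used as an alternative only. Its direction was found by correlation with the dwarf over normal ratios computed here after loess (0.83, 0.88 and 0.89 over the 85 tested miRNAs). Its centring was left as given.

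Calculations used R 4.3.3 and limma 3.58.1. In each array and dye, the background was a robust loess surface over rows and columns (span 0.3, degree 1) through the miRNA spots. For ratios, normexp with an offset of 50 and loess within arrays (span 0.3, 4 iterations) were applied, the 6 spots were averaged on the log2 scale, and array 2 was turned. For signals, the background was subtracted and the same loess curve was divided between the dyes. Mean ratios over the 3 arrays were compared with 0 in limma (functions lmFit and eBayes, Benjamini-Hochberg, threshold 0.05). The precision is limited by the number of arrays, and the steps were tested on simulated data. The gain between the dyes was the same at every brightness in those data, so they cannot test the curve at its bright end. The members, lists and tests were chosen with earlier results of these data known. The miRNAs named are the members, the 3 most alike to each detected member, the listed muscle miRNAs and the tissue markers. The probe of miR-1c was added because the rule on names takes it in. Apart from the authors' log2 ratios, used as an alternative, none of their fold changes or p-values was used. Embryo arrays were not analysed here.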

Additional observations from a re-analysis of the deposited data

How the results depend on the processing

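Over 23 other settings, the mean log2 ratio of miR-1a was below 0 in 22 and above 0 in 1, from -0.52 to 0.12, and that of miR-206 was below 0 in 21 and above 0 in 2, from -0.39 to 0.13. Neither passed the threshold in any of them (adjusted p from 0.413 to 0.984 and from 0.868 to 0.988, limma or the methods' t-test). Several of these settings keep the same ratios and change only the filter or the test. Most keep the loess curve through all miRNA spots, so the counts do not measure how firm a sign is. With no normalization within arrays, the mean of -0.40 for miR-1a came from -1.64, 0.35 and 0.085 on arrays 1, 2 and 3. The lowest mean of miR-206, -0.39, came from the same setting, with -1.68, 1.33 and -0.83. When median centring replaced loess the means turned to 0.12 for miR-1a and 0.13 for miR-206. Leaving out 1 array at a time gave -0.52 to -0.26 for miR-1a and -0.25 to 0.070 for miR-206, the last without array 3. For the log2 signal of miR-206, dwarf minus normal, the same gave -0.23 to 0.095. The cause of these turns was not tested. With no pairing by array (no replicate block), the values were -0.41 for miR-1a and -0.097 for miR-206, and no call changed.

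The number of miRNAs called was 0 in 18 of the 23 settings. It was 2 with a normexp offset of 16, 1 with median centring, 1 with a mean signal above 100, and 0 to 2 when 1 array was left out (1 without array 1, 2 without array 3). Neither member was among them.

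The 2 members near background have no settled ratio. The mean log2 ratio of miR-1b was 0.093, and it moved to 0.997 with plain subtraction, -0.41 with median centring, -0.94 with no normalization and 0.53 in the authors' log2 ratios. That of miR-1c was -0.0098, and it moved to 0.085, -0.46, -0.99 and 0.081 in the same settings, -0.0011 with no background correction and 0.031 with loess through the bright spots, the last a setting chosen after seeing the data.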
